A study of Mus musculus with 6 samples.

Results

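The interleukin-1 family ligands and receptors were examined in mouse ectopic endometriotic lesions grown from donor tissue with intact or conditionally deleted Dnmt3a, which encodes a de novo DNA methyltransferase. The 10 genes were fixed by name and consist of the ligands Il1a, Il1b, Il18 and Il33, the receptor antagonist Il1rn, and the receptor chains Il1r1, Il1r2, Il1rap, Il18r1 and Il1rl1. They are 10 of the 56884 genes in the count table, and all 10 were among the 18177 genes with enough counts to be tested. Donor uteri came from 8-week-old female floxed mice (Dnmt3a f/f, WT, 3 lesions) or floxed mice that also carried Cre recombinase under the progesterone receptor gene (Dnmt3a f/f:PR-Cre/+, KO, 3 lesions). Both groups therefore carried the floxed alleles, and Cre was present in the KO donors alone. Recipients in both groups were syngeneic C57BL/6J females with an estradiol pellet, and the donors had also been given estradiol. Because Cre acts in donor cells that express the progesterone receptor, cells that enter a lesion from the recipient keep an intact Dnmt3a gene. The labels describe uterine fragments placed into the peritoneal cavity and a time of 4 weeks, whereas the methods describe a fragment sutured to the mesentery and collection at day 21.

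Interleukin-1 alpha and interleukin-1 beta bind the receptor chain encoded by Il1r1, which signals after it recruits the accessory chain encoded by Il1rap. The antagonist encoded by Il1rn occupies the same receptor without signaling, and Il1r2 encodes a decoy receptor that binds ligand but lacks a signaling domain. Interleukin-18 acts through Il18r1 with the accessory chain Il18rap, and interleukin-33 acts through Il1rl1 (ST2) with Il1rap. In endometriosis, macrophages and neutrophils are known sources of interleukin-1 beta, while interleukin-33 is held in the nuclei of epithelial, stromal and endothelial cells and released as an alarmin.

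Each library was made from whole lesion RNA and held 45370342 to 57239184 counts. Dnmt3a was at 52.7, 43.9 and 51.7 CPM (counts scaled to library size, with TMM factors) in WT replicates 1, 2 and 3 and at 30.3, 33.5 and 36.2 CPM in KO replicates 1, 2 and 3. The change was -0.57 on the log2 scale (standard error, SE, 0.14, with an adjusted p = 0.321 in edgeR's quasi-likelihood test), and the groups did not overlap. Endometrial identity genes were present in every library: Esr1 ranged from 93.2 to 445 CPM, Pgr from 135 to 255 CPM and Epcam from 211 to 468 CPM. The gland factor Foxa2 was at 0 CPM in KO replicate 3 and at 2.62 CPM or lower in the others. The libraries differed within groups as well. Skeletal muscle genes summed to 27184 and 29675 CPM in WT replicates 1 and 3 to 4.07 CPM in WT replicate 2 and to 6.52 to 15.5 CPM in KO lesions, and their part in the results was not tested. Neutrophil marker genes summed to 12698 CPM in WT replicate 2 and to 603 CPM or less in every other library. Stromal marker genes summed to 9931, 11689 and 9814 CPM in WT replicates 1, 2 and 3. In KO lesions they summed to 11839 CPM in replicate 3 and to 5369 and 4013 CPM in replicates 1 and 2.

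Because Dnmt3a adds methyl groups to cytosines that precede guanine, the CpG dinucleotides in front of the transcription starts are given for 4 genes that were called lower in KO lesions (Il1b, Il1rn, Il1rap, Il33) and for Il1rl1, which was not called. Where a gene has several annotated starts (Il1rn, Il33 and Il1rl1), the window of the first is printed. Each sequence holds the 250 bases before a start in the RefSeq annotation of GRCm38.p6, reads 5′ to 3′ on the strand of the gene, and has its CpG dinucleotides in capitals.
Il1b (chr2:129371140-129371389, minus strand): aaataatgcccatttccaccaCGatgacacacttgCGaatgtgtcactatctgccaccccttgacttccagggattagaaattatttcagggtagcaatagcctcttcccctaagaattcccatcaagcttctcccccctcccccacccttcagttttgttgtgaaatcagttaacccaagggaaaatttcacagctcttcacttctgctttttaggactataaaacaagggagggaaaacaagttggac
Il1rn (chr2:24336610-24336859, plus strand): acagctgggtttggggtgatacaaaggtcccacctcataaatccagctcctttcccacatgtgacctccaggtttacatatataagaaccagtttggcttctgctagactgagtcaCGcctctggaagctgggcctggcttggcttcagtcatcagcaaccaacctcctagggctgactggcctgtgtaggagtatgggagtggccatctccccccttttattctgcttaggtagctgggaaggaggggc
Il33 (chr19:29924863-29925112, plus strand): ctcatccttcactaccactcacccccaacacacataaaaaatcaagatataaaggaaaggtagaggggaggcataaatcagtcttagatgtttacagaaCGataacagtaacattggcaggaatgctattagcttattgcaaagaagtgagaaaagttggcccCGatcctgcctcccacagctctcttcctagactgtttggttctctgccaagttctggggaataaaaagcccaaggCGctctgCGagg
Il1rap (chr16:26581455-26581704, plus strand): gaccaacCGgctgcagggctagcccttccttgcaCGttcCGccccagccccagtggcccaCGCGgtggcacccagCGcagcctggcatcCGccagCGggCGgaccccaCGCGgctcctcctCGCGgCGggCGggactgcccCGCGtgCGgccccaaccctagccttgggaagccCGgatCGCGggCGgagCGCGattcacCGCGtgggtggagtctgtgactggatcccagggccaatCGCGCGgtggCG
Il1rl1 (chr1:40429320-40429569, plus strand): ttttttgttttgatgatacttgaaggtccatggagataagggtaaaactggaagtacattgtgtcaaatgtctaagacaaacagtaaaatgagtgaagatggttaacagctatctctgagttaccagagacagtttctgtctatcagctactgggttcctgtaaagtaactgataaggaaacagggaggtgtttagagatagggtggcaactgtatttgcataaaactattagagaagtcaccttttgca
The printed windows held 2 CpG for Il1b, 1 for Il1rn, 4 for Il33, 30 for Il1rap and 0 for Il1rl1. The other windows held 4 and 4 CpG for Il1rn, 4 for Il33 and 3 for Il1rl1. Over all 32851 windows of this length in the table, the median was 6 CpG with quartiles of 2 and 16, and 94.8% of the windows had no more CpG than Il1rap. The 10 genes had 17 annotated starts, of which 13 had 6 CpG or fewer. Il1r2 had 14 in its window. The genes called lower therefore ranged from windows below the median of all windows (Il1b, Il1rn and Il33) to one above the upper quartile (Il1rap). A loose form of the NF-kappa B site (GGG and CC with any 5 bases between them, on either strand, overlapping matches counted) was found in 5 of the 17 windows and in 45.8% of all windows. Methylation was not measured in these libraries.

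Transcripts of 6 of the 10 genes were called lower in KO lesions: Il1a, Il1b, Il1rn, Il1r2, Il1rap and Il33. A call required an unadjusted p-value under 0.05 together with a log2 fold change (log2FC) beyond 1 in size, the threshold used in the study. Of all genes tested, 5.85% were called lower and 3.10% higher, and 0 of the 10 were called higher. The log2FC was below 0 for 9 of the 10, against 48.6% of all genes, and the median log2FC was -2.03 over the 10 genes and 0.01 over all genes tested. WT values were all higher than KO values for 4 of the 10 genes (8.74% of all genes), and the reverse held for 0 (10.7%). Il1r1, Il18, Il18r1 and Il1rl1 were not called. After Benjamini-Hochberg adjustment over all genes in edgeR, 0 of the 10 passed 0.05 (0.00550% of all genes), while 6 passed it unadjusted (14.7%). DESeq2's Wald test gave adjusted p-values under 0.05 to 3 of the 10 and to 6.26% of all genes (Il1a 0.0206, Il1rap 0.0222 and Il33 0.0438) and gave no p-value to Il1b, Il1rn and Il1r2, which its outlier filter removed. Over the 13 alternatives the adjusted p-value ran from 0.0206 to 0.668 for Il1a, from 0.0222 to 0.668 for Il1rap and from 0.0438 to 0.668 for Il33. Leaving out WT replicate 2 left 3 of the 10 genes called lower. Leaving out KO replicate 1 left 0, and leaving out KO replicate 2 left 1 (Il1rap). Fewer genes of the whole table were called lower in the latter settings too, 2.90% and 3.48%. Without KO replicate 1 the log2FC values of these 6 genes ran from -4.97 to -1.93.

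**Figure D1:**
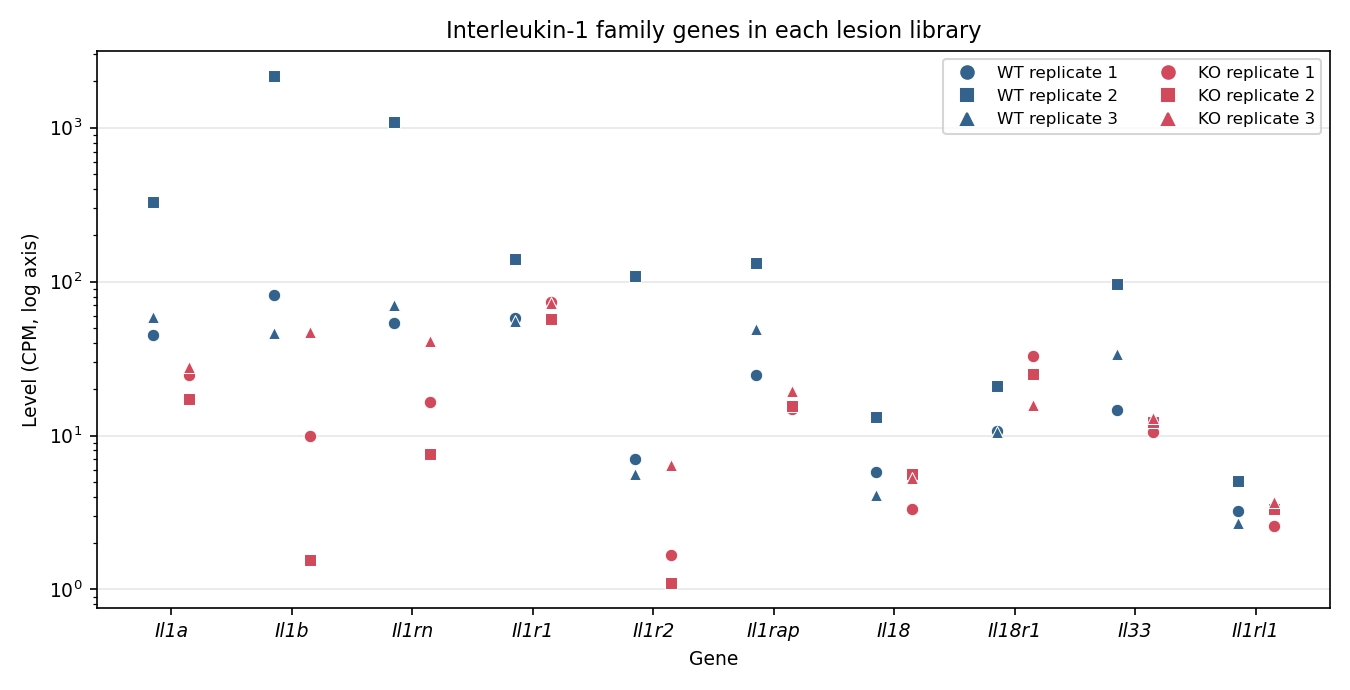
Level of the 10 interleukin-1 family genes in CPM on a log axis, with 1 point for each of the 3 WT and 3 KO libraries. WT replicate 2 is the highest point for 9 of the 10 genes, and the WT and KO points do not overlap for Il1a, Il1rn, Il1rap and Il33.

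The agonists of the interleukin-1 receptor differed in how cleanly the groups separated. Il1a, on chromosome 2 of GRCm38 from 129299610 to 129309972, was at 45.1, 328 and 58.5 CPM in WT replicates 1, 2 and 3 and at 24.8, 17.2 and 28.0 CPM in KO replicates 1, 2 and 3. The groups were separate. The log2FC was -2.62 (SE 0.83, adjusted p = 0.328, edgeR's quasi-likelihood test), a 6.15-fold lower level. Il1b, on the same chromosome from 129364570 to 129371139, was at 82.4, 2165 and 46.6 CPM in WT and at 9.98, 1.55 and 47.2 CPM in KO lesions. KO replicate 3 was thus within the WT range, just above WT replicate 3, while KO replicates 1 and 2 lay below all WT lesions. The log2FC of Il1b was -5.29 with an SE of 2.05 (adjusted p = 0.332, edgeR's quasi-likelihood test). An antisense gene, Il1bos, overlaps Il1b and held 6 to 94 counts, against 78 to 96184 counts for Il1b. Reads of such a pair can be told apart only if the count used strand.

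The antagonist and the decoy receptor were called lower, as the agonists were. Il1rn was at 54.2, 1084 and 70.6 CPM in WT and at 16.4, 7.59 and 41.1 CPM in KO lesions. The groups did not overlap, and KO replicate 3 was the nearest to WT. Its log2FC was -4.21 (SE 1.44, adjusted p = 0.328, edgeR's quasi-likelihood test). Il1r2 was at 7, 108 and 5.62 CPM in WT and at 1.68, 1.11 and 6.42 CPM in KO lesions. As for Il1b, KO replicate 3 fell inside the WT range. The log2FC of Il1r2 was -3.71 with an SE of 1.44 (adjusted p = 0.332, edgeR's quasi-likelihood test).

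The signaling receptor Il1r1 did not follow this pattern. It was at 58.2, 141 and 55.7 CPM in WT and at 73.8, 56.8 and 72.7 CPM in KO lesions, so that all KO values lay between WT replicates 3 and 2. The log2FC was -0.32 with an SE of 0.39 (adjusted p = 0.695, edgeR's quasi-likelihood test). The shared accessory chain Il1rap, on chromosome 16 from 26581704 to 26730117, was at 24.8, 133 and 49.3 CPM in WT and at 14.8, 15.5 and 19.5 CPM in KO lesions. All WT lesions lay above a narrow KO range. Its log2FC of -2.06 (SE 0.61, adjusted p = 0.321, edgeR's quasi-likelihood test) had the smallest edgeR p-value of the 10 genes. Gene counts do not separate the membrane-bound and soluble forms that Il1rap, Il1r2 and Il1rl1 can encode.

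Within the interleukin-18 arm, the ligand was not called. Il18, on chromosome 9 from 50554827 to 50581840, was at 5.81, 13.2 and 4.10 CPM in WT and at 3.33, 5.64 and 5.33 CPM in KO lesions, with overlapping groups and a log2FC of -0.69 (SE 0.49). Its receptor chain Il18r1 had the only log2FC above 0 among the 10 genes. It was at 10.7, 21 and 10.5 CPM in WT and at 32.9, 25.3 and 15.8 CPM in KO lesions. KO replicates 1 and 2 lay above all WT lesions, and KO replicate 3 lay below WT replicate 2. The log2FC of Il18r1 was 0.81 (SE 0.39, adjusted p = 0.369, edgeR's quasi-likelihood test). It was 1.22 without WT replicate 2 and 1.05 without KO replicate 3, both past the threshold. With any other lesion left out it ran from 0.54 to 0.80 and was not called.

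In the interleukin-33 arm, the ligand was called lower and its receptor was not. Il33, on chromosome 19 from 29925114 to 29960718, was at 14.6, 96.2 and 33.7 CPM in WT and at 10.5, 12.3 and 13 CPM in KO lesions. The groups did not overlap, although WT replicate 1 was only slightly above KO replicate 3. The log2FC was -2.01 (SE 0.67, adjusted p = 0.328, edgeR's quasi-likelihood test). Il1rl1, which encodes the interleukin-33 receptor, was at 3.25, 5.04 and 2.69 CPM in WT and at 2.60, 3.32 and 3.71 CPM in KO lesions, a log2FC of -0.19 with an SE of 0.32. Markers of mast cells, which typically carry this receptor, summed to 52.7 to 568 CPM in WT and 37.0 to 168 CPM in KO lesions. Of 6 tested, 1 (Mcpt4) was called lower, against 5.85% of all genes.

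The size of these differences depended on WT replicate 2. It was the highest of the 6 libraries for 9 of the 10 genes, against 24.2% of all genes tested. Without it, Il1a (log2FC -1.15), Il1rap (-1.16) and Il33 (-1.02) were still called lower, where 5.86% of all genes were, and adjusted p-values in edgeR's quasi-likelihood test were 0.128, 0.217 and 0.328. Il1b (-1.72), Il1rn (-1.52) and Il1r2 (-1.04) kept a log2FC below -1 but were no longer called. Il18r1 was called higher, where 2.10% of all genes were. The values of Il1r1 and Il1rl1 changed sign, to 0.25 and 0.11. The median over the 10 genes was then -1.03, and over all genes 0.04.
KO replicate 3 was the highest KO library for 7 of the 10 genes, and the share over all genes was not computed.

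**Figure D2:**
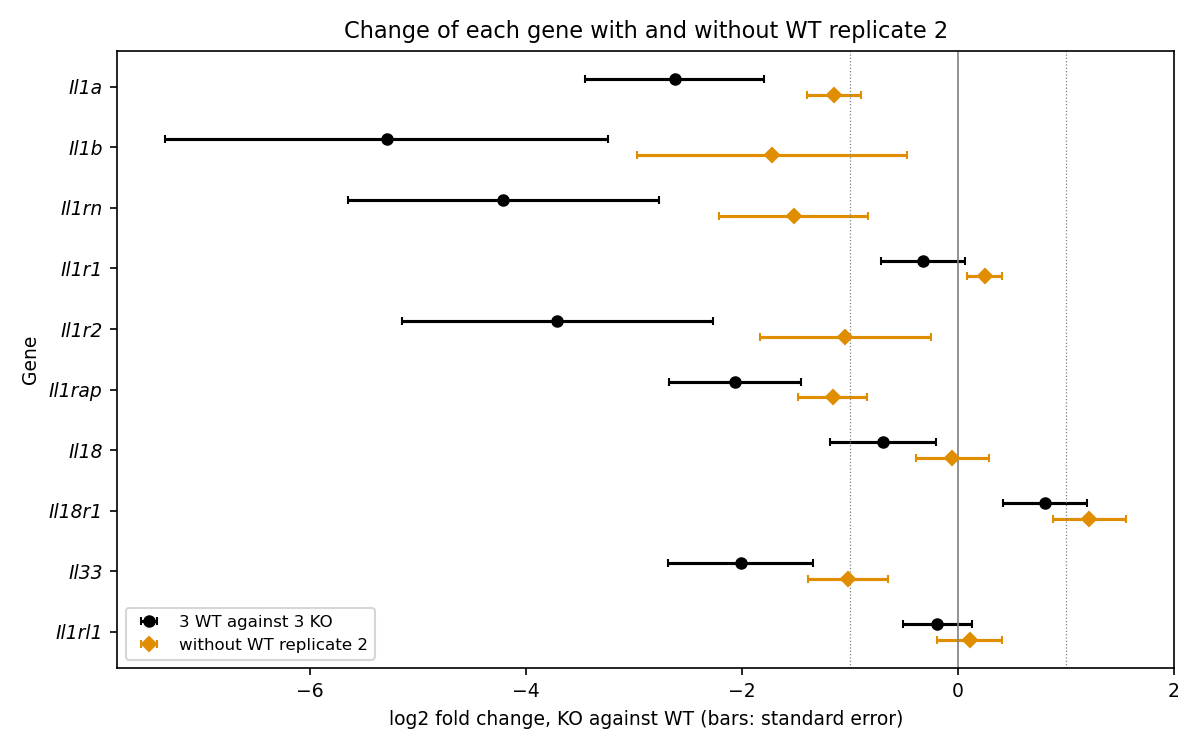
Log2 fold change of KO against WT lesions for each gene with its SE, from all 6 libraries (black circles) and without WT replicate 2 (orange diamonds), with dotted lines at -1 and 1. The values of Il1b move from -5.29 to -1.72 and those of Il1a from -2.62 to -1.15, whereas Il18r1 lies above 0 in both.

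To set agonists beside antagonist and decoy, ratios of counts per kb of exon were computed within each library, where scaling between libraries cancels. The ratio of Il1b to its antagonist Il1rn was 4.41, 5.80 and 1.92 in WT and 1.77, 0.596 and 3.33 in KO lesions. The groups overlapped, since KO replicate 3 lay above WT replicate 3. The mean log2 ratio was 1.87 ± 0.83 (SD, n = 3) in WT and 0.60 ± 1.26 (SD, n = 3) in KO lesions (exact two-sided permutation test, p = 0.2, adjusted p = 0.3 over 6 ratios). For Il1a the ratio to Il1rn was 2.33, 0.848 and 2.32 in WT and 4.25, 6.37 and 1.91 in KO lesions, again with overlap (exact permutation test, p = 0.3). The difference in mean log2 ratio was -1.27 for Il1b and 1.16 for Il1a, with overlapping groups in both. It was -0.59 for Il1b without KO replicate 2 and 0.68 for Il1a without WT replicate 2.
The ratio of signaling to decoy receptor did separate. Il1r1 to Il1r2 was 2.49, 0.391 and 2.97 in WT and 13.1, 15.2 and 3.39 in KO lesions, so that every KO value was above every WT value. KO replicate 3 was only slightly above WT replicate 3. The mean log2 ratio was 0.51 ± 1.62 (SD, n = 3) in WT and 3.13 ± 1.19 (SD, n = 3) in KO lesions (two-sided exact permutation test, p = 0.1, adjusted p = 0.2, and 3 lesions against 3 allow no smaller p). Without WT replicate 2 the difference of log2 ratios went from 2.62 to 1.69.
Il33 to its receptor Il1rl1 separated the other way, with 10.8, 45.5 and 29.8 in WT and 9.60, 8.86 and 8.38 in KO lesions (exact permutation test, p = 0.1). WT replicate 1 was close to the KO values. The ratio of Il18 to Il18bp, its soluble binding protein, was 1.26, 2.06 and 1.03 in WT and 1.22, 1.44 and 1.90 in KO lesions and overlapped (exact permutation test, p = 0.8). A sixth ratio, Il18r1 to its accessory chain Il18rap, was chosen after the values of both were seen. It was 2.21, 0.459 and 1.36 in WT and 7.50, 9.47 and 3.09 in KO lesions, without overlap.

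**Figure D3:**
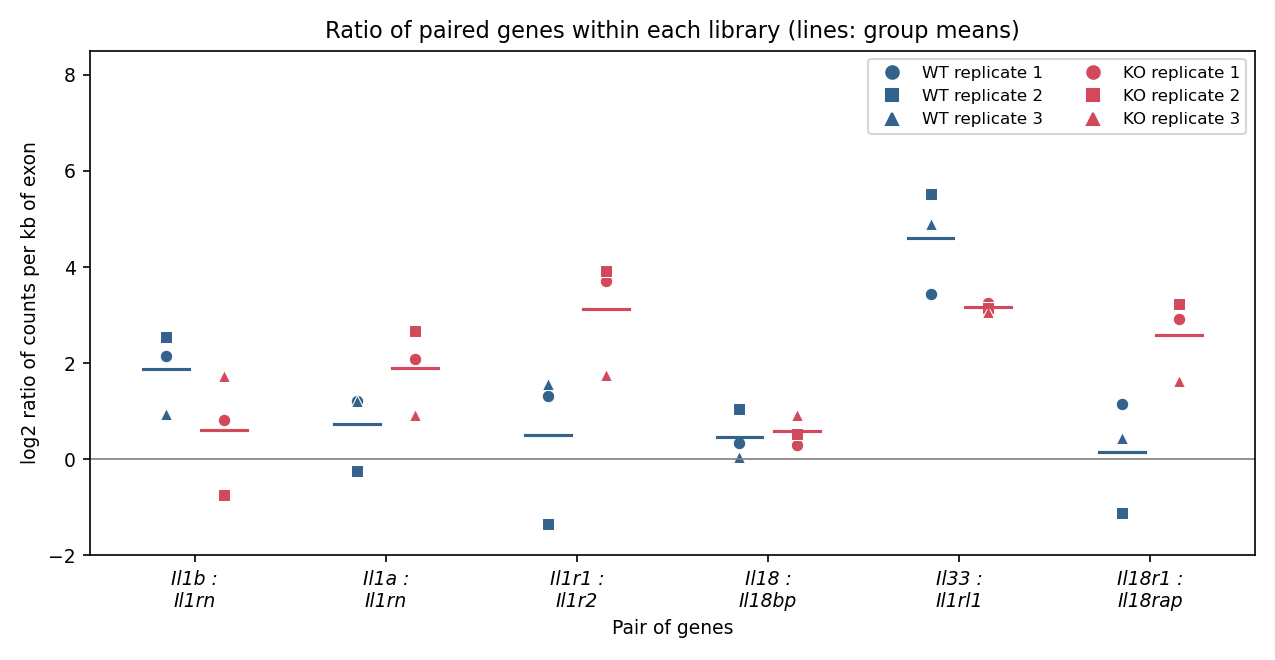
Log2 ratio of counts per kb of exon for 6 pairs of genes, with 1 point per library and a line at each group mean (n = 3 WT and 3 KO). The KO points lie above all WT points for Il1r1 to Il1r2 and for Il18r1 to Il18rap, below them for Il33 to Il1rl1, and overlap them for the other pairs.

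Per kb of exon, Il1b had the highest median level of the 10 genes in WT lesions, 43.2 CPM per kb, followed by Il1a (29.6), Il1rn (12.8), Il33 (11.7), Il1r1 (9.15), Il18 (5.63), Il1rap (4.34), Il1r2 (3.67), Il18r1 (2.21) and Il1rl1 (0.471). In KO lesions the order of the medians was Il1a (12.6), Il1r1 (11.4), Il18r1 (5.25), Il1b (5.23), Il18 (5.17), Il33 (4.27), Il1rn (2.96), Il1rap (1.36), Il1r2 (0.883) and Il1rl1 (0.481). Il1b ranked first in WT replicates 1 and 2 and KO replicate 3, but eighth in KO replicate 2. Neighbouring genes in both orders had overlapping ranges, with exceptions. In KO lesions Il1r1 (8.93 to 11.6) lay above Il18r1 (3.28 to 6.82), and Il1rl1 was the lowest gene in all 6 libraries. Per kb, Il1a exceeded Il1b in KO replicates 1 and 2 (12.6 against 5.23 and 8.73 against 0.812) and in WT replicate 3 (29.6 against 24.5).

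Several of the receptor genes lie side by side on mouse chromosome 1 within 478 kb, in the order Il1r2, Il1r1, Il1rl2, Il1rl1, Il18r1 and Il18rap. The 2 genes at the ends were called lower, with log2FC values of -3.71 for Il1r2 and -2.26 for Il18rap. The 4 genes between them were not called, and their values ran from -0.32 for Il1r1 to 0.81 for Il18r1. Without WT replicate 2 the end genes were at -1.04 and -0.63 and were not called. On chromosome 2, Il36b, Il36g, Il36a, Il36rn, Il1f10 and Il1rn lie within 198 kb. There Il36g, Il36a and Il1rn were called lower while Il36rn, at 2 to 16 counts per library, was called higher. Without WT replicate 2, Il36g (-1.20) and Il36a (-1.82) were still called, and Il1rn (-1.52) and Il36rn (1.34) were not. Neighbouring genes therefore differed in their calls.

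**Figure D4:**
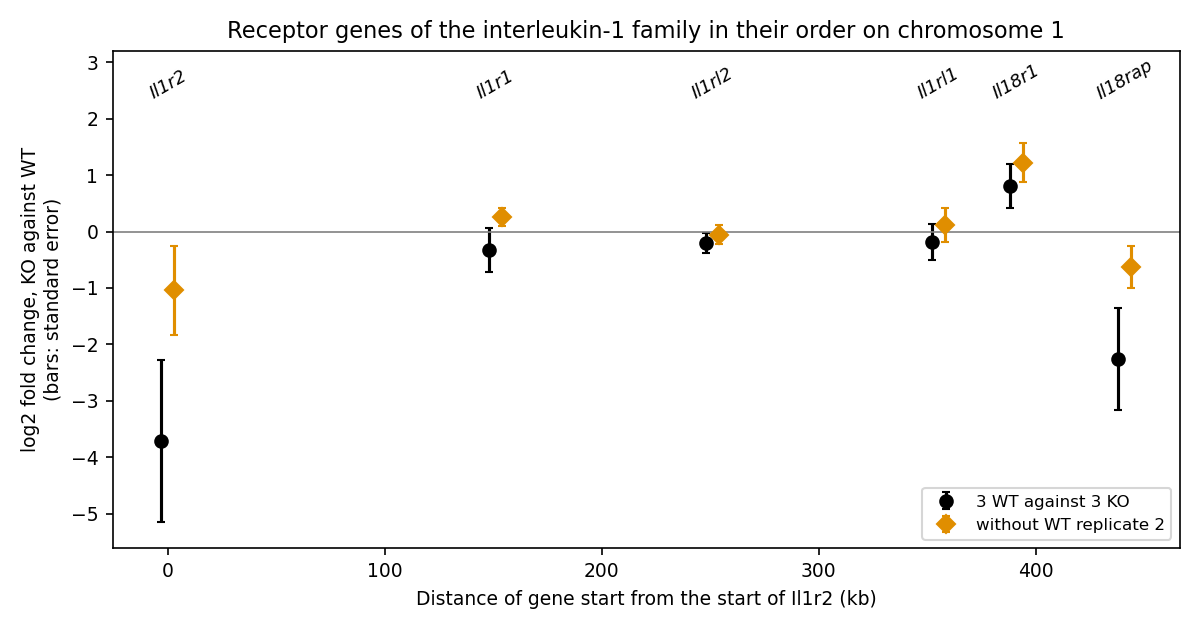
Log2 fold change of KO against WT lesions, with its SE, for 6 receptor genes against the distance of each gene start from the start of Il1r2 in kb, from all 6 libraries (black circles) and without WT replicate 2 (orange diamonds). Il1r2 and Il18rap, at the ends, have values of -3.71 and -2.26, and the genes between them lie from -0.32 to 0.81.

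Of 11 further family genes, 9 were tested, with a median log2FC of -0.20 (0.01 over all genes). Of the 9, 3 were called lower (5.85% of all genes) and 1 higher (3.10%). The 4 calls became 2 without WT replicate 2 or WT replicate 3, 1 without KO replicate 2 and 0 without KO replicate 1. Il36g, an agonist of the interleukin-36 receptor best known from barrier epithelia, was at 86.8, 257 and 96.7 CPM in WT and at 35.8, 24.6 and 59.3 CPM in KO lesions. Its log2FC was -1.88 (SE 0.54, adjusted p = 0.321, edgeR's quasi-likelihood test), and it was still called, at -1.20, without WT replicate 2. A second agonist of that receptor, Il36a, was at 61.2, 25.4 and 49.2 CPM in WT and at 11.6, 9.93 and 25.2 CPM in KO lesions. In contrast to most of the family, WT replicate 2 was its lowest WT library, and its log2FC was -1.54 with all libraries and -1.82 without that lesion. The groups of both genes did not overlap, but for Il36a the lowest WT and highest KO values nearly met.
The third agonist, Il36b, was at 11.6, 3.47 and 6 CPM in WT and at 18.9, 17.6 and 6.29 CPM in KO lesions (log2FC 1.03, SE 0.58, not called). Il36rn, the antagonist of that receptor, was called higher at a log2FC of 1.41, but it held only 2 to 16 counts per library. Their receptor Il1rl2 was at 17.8 to 25.6 CPM in WT and 16.8 to 20.4 CPM in KO lesions, and its log2FC was -0.20 (SE 0.18).
Il18rap was at 6.75, 64.0 and 10.8 CPM in WT and at 6.14, 3.73 and 7.17 CPM in KO lesions (log2FC -2.26, SE 0.90, called lower with overlapping groups). The soluble inhibitor Il18bp was at 13.6, 18.8 and 11.7 CPM in WT and at 8, 11.5 and 8.23 CPM in KO lesions, a log2FC of -0.67 (SE 0.25) that is not beyond 1. Sigirr, a receptor that dampens signaling of this family, was at 9.37, 7.88 and 11.6 CPM in WT and at 20.3, 17.4 and 9.84 CPM in KO lesions (log2FC 0.72, SE 0.31, not called). KO replicates 1 and 2 were the high samples, as for Il18r1 and Il36b. Il1rapl2 was tested at 2 to 22 counts (log2FC 0.09), and Il1f10 and Il1rapl1 held at most 4 and 6 counts.

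Among 14 genes of the inflammasome and of proteases that process these cytokines, 12 were tested. Their median log2FC was -1.11 (0.01 over all genes). Of the 12, 5 were called lower (5.85% of all genes) and 0 higher (3.10%). The called genes encode the sensors Nlrp3 (-3.78), Nlrc4 (-1.91) and Aim2 (-2.02), the protease Casp4 (-2.20) and the pore-forming Gsdmd (-1.20). Casp1, which cleaves the precursors of interleukin-1 beta and interleukin-18, was at 24.7, 41.8 and 30.1 CPM in WT and at 34.0, 27.1 and 29.0 CPM in KO lesions, a log2FC of -0.10 with an SE of 0.23. The adaptor Pycard (0.09) and the membrane-rupture gene Ninj1 (-0.89) were not called either. The 5 calls became 1 without KO replicate 1, 2 without KO replicate 2, and 3 when WT replicate 2 or KO replicate 3 was removed.

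Downstream of the receptor, 1 of 16 signaling genes was called lower (5.85% of all genes). This was Irak3, an inhibitory member of the kinase family, at 28.8, 217 and 27.3 CPM in WT and at 15.8, 10.7 and 25.4 CPM in KO lesions (log2FC -2.40, SE 0.93). It was not called without WT replicate 2 or without any of the KO lesions. The kinase Irak1 was at 87.0 to 103 CPM in WT and 94.2 to 105 CPM in KO lesions, a log2FC of 0.02 with an SE of 0.12. Tollip (-0.01) and Tab2 (-0.43) were not called, and the median of the 16 genes was -0.04. The adaptor Myd88, shared by all these receptors, was at 54.1 to 106 CPM in WT and 45.2 to 58.6 CPM in KO lesions.

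Of 18 genes known to be induced by interleukin-1, all were tested, with a median log2FC of -2.23 (0.01 over all genes). Of the 18, 10 were called lower (5.85% of all genes) and 0 higher (3.10%). The called genes were the colony-stimulating factor Csf3 (-2.13), the chemokines Cxcl1 (-3.68) and Ccl2 (-2.16), the feedback genes Nfkbia (-1.96), Nfkbiz (-2.30), Tnfaip3 (-3.40) and Zc3h12a (-1.85), the adhesion molecules Icam1 (-1.44) and Sele (-2.69), and the acute-phase gene Saa3 (-3.87). Csf3 was at 48.7, 75.2 and 125 CPM in WT and at 16.8, 17.1 and 22.9 CPM in KO lesions. It was among the genes whose highest library was not WT replicate 2. Lcn2, another acute-phase gene, was at 5630.4, 5541 and 7374 CPM in WT and at 12589.9, 8787 and 6285 CPM in KO lesions (log2FC 0.58, not called), and the chemokines Cxcl2 (-5.64) and Cxcl5 (-1.65) were not called. The 10 calls became 4 without WT replicate 2 (5.86% of all genes called lower), and 2 without KO replicate 1 (2.90%) or KO replicate 2 (3.48%). Other stimuli induce these genes as well.
Of 10 genes linked to interleukin-18 or interleukin-33, 5 were tested. Ccl17, a T cell chemokine, was called lower (-2.04) at 1.24 CPM or less in every library, and Arg1 (0.97), Gata3 (-1.77) and Ccl24 (-0.60) were not called. The effector cytokines Ifng, Il4 and Il13 were at 0.270 CPM or less in every library, and Il5 and Il9 had 0 counts in all 6.

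Markers of neutrophils and T cells moved with the genes called lower. Neutrophil markers summed to 603, 12698 and 289 CPM in WT and to 100.3, 44.6 and 265 CPM in KO lesions, and of 13 tested of 14 listed, 7 were called lower. The count was 0 when WT replicate 2 or KO replicate 1 was left out and 1 when KO replicate 2 was. S100a9 was the most abundant of them, at 98.4 to 5263 CPM in WT and 2.38 to 57.8 CPM in KO lesions. Ngp and Stfa2l1 had 0 counts in KO replicate 2. T cell markers summed to 33.5, 97.4 and 34.5 CPM in WT and to 7.95, 5.36 and 25.1 CPM in KO lesions. Of these, 7 of 8 were called lower, and 1 after removal of WT replicate 2, KO replicate 1 or KO replicate 2. Of all genes tested, 5.85% were called lower. The share was 5.86% without WT replicate 2, 2.90% without KO replicate 1 and 3.48% without KO replicate 2.
Macrophage markers summed to 2359 to 6527 CPM in WT and 1535 to 3385 CPM in KO lesions. With all libraries, 0 of 12 were called, although 11 had a log2FC below 0 and the median was -0.87. The count was 7 without KO replicate 3, 1 without WT replicate 1 and 0 with any other lesion left out. It was 4 with limma voom and 2 with DESeq2's Wald test. Squamous markers summed to 21.7, 166 and 25.4 CPM in WT and to 20.4, 24.1 and 14.3 CPM in KO lesions. Of 6 tested, 4 had a log2FC below 0 and 2 above 0. With all libraries 2 were called lower, and the calls ran from 0 to 4 with each lesion left out. Among these markers, the keratin gene Krt5 was at 99.2 CPM in WT replicate 2 and at 0.250 CPM or less elsewhere. Epithelial markers summed to 2081 to 3246 CPM in WT and 2193 to 4378 CPM in KO lesions, and endothelial markers to 613 to 735 CPM and 273 to 807 CPM. Of 10 stromal markers, 0 were called lower and 2 higher, and the calls ran from 0 to 6 with each lesion left out. Markers of NK cells, which carry the interleukin-18 receptor, summed to at most 8.42 CPM in any library, and those of eosinophils and basophils to 8.11 to 16.7 CPM in WT and 12.7 to 34.3 CPM in KO lesions. The part of these cell types in the results was not tested, and in whole lesions fewer cells of a type and less RNA per cell cannot be told apart.

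The genes whose log2 CPM profile over the 6 libraries was most like that of Il1b were Gm5483, Trem1, S100a8, Cxcl3 and Acod1, with root mean square differences of 0.12 to 0.38 on the log2 scale, where Il1b itself had an SD of 3.46. Of these, Trem1, S100a8 and Acod1 are also on the neutrophil list. For Il33 the nearest were Jchain, Il1rap, Casp4, Avil and Ctse (0.12 to 0.26, SD of Il33 1.23), so that the ligand lay next to its own accessory receptor chain. Il1r1 was nearest to Cdc25b, Ints6l, Slc8b1, Armc7 and Tle3 (0.02 to 0.10, SD 0.51), and Il18 to Unc13d, Aldh3b1, Lrrc4, Cracr2a and Slc39a14 (0.13 to 0.17, SD 0.67). These were the closest of 15045 candidates each with a mean of at least 1 CPM, and with 6 libraries such closeness is a description only.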

How the data were processed

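Libraries of poly(A) RNA from 3 WT and 3 KO lesions were sequenced by the authors with a stranded kit. The deposited values are raw counts of reads per gene, without normalization, and the table of all 6 libraries was identical to the 6 tables of single libraries. The methods name trimming, mapping to GRCm38 and counting on Galaxy, while the submitters' processing notes list Trimmomatic, featureCounts, DESeq2 and GRCm39. The annotation release and the strand setting of the count were not given in the sources used here. Of counts from 1 to 19, 88.9% to 90.4% were even, so that each read pair appears to enter as 2 counts, and intervals from counting alone would be too narrow. Gene symbols, GRCm38 coordinates and exon lengths were taken from GENCODE M21, where 51948 of 56884 identifiers were found without their version. Coordinates can differ from the models that were counted. The interleukin-36 genes carry older symbols there and were matched through RefSeq synonyms.

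The counts were analysed in R 4.3.3 with edgeR 4.0.16 (filterByExpr, TMM, quasi-likelihood test, genotype as the only term). Each SE is the size of the log2FC over the root of the F statistic. P-values were adjusted by Benjamini-Hochberg over all 18177 tested genes. Ratios used 0.5 added counts and exact permutation tests. Steps were tested on simulated data. The alternatives were DESeq2's size factors, upper quartile scaling, no filter beyond 1 count, a floor of 10 counts for each library, DESeq2 1.42.0, limma 3.58.1 voom with quality weights, a replicate block and each lesion left out. Halved counts, DESeq2 without its filters and the ratio of Il18r1 to Il18rap were added after seeing the data. Named genes are all 10 genes, 11 further family genes, the called genes of each pathway list with up to 3 abundant others, abundant markers, and the 5 nearest profiles for Il1b, Il1r1, Il18 and Il33. A few others (Il1bos, Myd88, Ifng, Il4, Il13, Il5, Il9, and single markers) were named after their values were seen. The genes and lists were chosen with earlier results of these data known. The methods give 3 donors per group; p-values measure the spread between these lesions.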

Additional observations from a re-analysis of the deposited data

How the results depend on the processing

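The 6 genes called lower were again 6 in count with DESeq2's size factors, upper quartile scaling, either filter, halved counts and DESeq2 without its filters, and 5 with limma voom. The count was 3 with DESeq2's Wald test, which gave no p-value to 3 of the genes, and 0 to 6 with each lesion left out. No gene was called higher with all libraries in edgeR, 1 (Il18r1) was with limma voom, and 0 to 1 were with each lesion left out. With the replicate number as a block, 2 genes (Il1rap and Il33) were called lower. Over all 18177 genes tested, 573 were called lower with the block, against 1064 in the main fit. DESeq2's Wald test called 1351 of them lower and limma voom 1523. The labels and methods state no pairing of same-numbered lesions. Correlations of same-numbered deviations from the group means were 0.03, -0.15 and -0.20. WT replicate 1, for example, was closer to KO replicate 2 (0.14). With 3 lesions per group, such correlations cannot decide whether lesions were paired. For Dnmt3a the log2 fold change was between -0.68 and -0.47 over the 13 alternatives. Il1r1 turned to 0.13 with limma voom and ran from -0.58 to 0.25 with each lesion left out, the highest without WT replicate 2, the setting in which Il1rl1 (-0.39 to 0.11) also turned. Il1rapl2 (-0.85 to 0.46) turned to -0.26 with limma voom, -0.36 when WT replicate 2 was removed and -0.85 when KO replicate 1 was. The difference in the log2 ratio of Il18 to Il18bp was 0.11 and ran from -0.10 to 0.40 with each lesion left out, with values below 0 without WT replicate 3 (-0.10) or KO replicate 3 (-0.06). The causes of these shifts were not tested. Fits with a lesion left out also have fewer degrees of freedom, and the part of this in the calls was not tested. The other ratios kept their direction with each lesion left out and with 0 or 5 counts added. Upper quartile scaling moved the median of all genes from 0.01 to 0.11.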
